A study of Mus musculus with 4 samples.

Results

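Gbp2 and 8 further interferon response genes, Gbp3, Gbp7, Irf1, Irf7, Irf9, Stat2, Ifit1 and Isg15, were followed in ovaries of mouse embryos that overexpress Sall1. These 9 genes are rows of a table of 34682 gene symbols. Gbp2 was chosen on its mutant to wild-type difference in these same libraries, and the others were selected by name with results of these data already known. Their own differences are therefore given as a description, with no p-value, and where members are counted among the calls of fits over all genes the count supports nothing. The question examined was whether Gbp2 was higher alone or together with other interferon targets.

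The table holds RNA-seq counts of 4 libraries from developing ovaries at E13.5, of which 2 came from the Sall1-overexpressing mutant and 2 from wild-type embryos, numbered replicate 1 and 2 in each genotype. The mutant carries a BAC, a large genomic insert cloned in bacteria, in which the regulatory elements and promoter of Wt1 drive the coding sequence of Sall1. It was integrated with piggyBac into female embryonic stem cells. Transgenic mice were made from selected clones by morula aggregation, in which stem cells are combined with a host embryo. How many clones or embryos stand behind each library is not given in the sources used here. Nor is it given whether the embryos were bred from such mice, or whether the mutant ovaries held host cells. The stem cells are described as C57BL/6J or a hybrid with 129, the wild-type gonads as CD1 in the methods and as littermates elsewhere, and the wild-type columns carry B6 in their names. Where the strains of the groups differed, strain and transgene cannot be told apart. No source says that the libraries are separate embryos, so the spread between them may be technical.

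Interferons are secreted proteins that warn cells of infection. Type I interferons signal through the receptor chains IFNAR1 and IFNAR2 and the kinases JAK1 and TYK2 to a complex that contains STAT2 and IRF9 and binds the interferon-stimulated response element (ISRE). Type II interferon, interferon gamma, acts through IFNGR1 and IFNGR2 on factors that bind the gamma-activated sequence (GAS), and it induces IRF1, which itself binds ISRE-like letters. Among the targets, guanylate-binding proteins and immunity-related GTPases attack the membranes around intracellular microbes, while IFIT1 binds foreign RNA and ISG15 is a ubiquitin-like modifier. Many of these genes also have a low level in uninfected tissue.

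The promoter letters of Gbp2 are shown because it was the member with the clearest difference. The 300 bases from 250 before to 50 after its RefSeq start lie on the plus strand of GRCm38.p6 at chr3:142620413-142620712. Both strands were searched for the ISRE letters GAAANNGAAA (TTTCNNTTTC on the other strand) and for the GAS letters TTCNNNGAA, which read the same on both strands. Capitals mark a match. Gbp2 held 1 ISRE match, which begins 59 bases before the start, and 0 GAS matches.
Gbp2: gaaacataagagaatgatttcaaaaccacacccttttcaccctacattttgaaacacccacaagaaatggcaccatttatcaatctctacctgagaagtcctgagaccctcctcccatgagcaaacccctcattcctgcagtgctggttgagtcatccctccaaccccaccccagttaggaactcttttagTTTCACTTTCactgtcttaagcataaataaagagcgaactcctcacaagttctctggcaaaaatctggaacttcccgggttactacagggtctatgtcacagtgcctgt

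The 125 bases before the start are shown for its neighbours in the same gene cluster, Gbp5 (chr3:142496809-142496933, plus strand), Gbp7 (chr3:142530211-142530335, plus strand) and Gbp3 (chr3:142559919-142560043, plus strand). They are set beside Irgm2 (chr11:58214852-58214976, plus strand), an immunity-related GTPase, and beside Isg15 (chr4:156200819-156200943, minus strand) and Ifit1 (chr19:34640764-34640888, plus strand), the textbook reporters of type I interferon. Gbp5 has a further ISRE match, 165 bases before its start, and a further GAS match, both outside the stretch shown. In Gbp3 and Isg15 the capitals are ISRE matches that overlap each other.
Gbp5: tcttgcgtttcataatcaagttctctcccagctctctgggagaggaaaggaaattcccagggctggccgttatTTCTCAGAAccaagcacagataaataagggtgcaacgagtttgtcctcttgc
Gbp7: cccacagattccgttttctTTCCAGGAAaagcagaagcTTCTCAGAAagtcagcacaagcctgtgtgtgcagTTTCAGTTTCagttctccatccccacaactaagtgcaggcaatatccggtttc
Gbp3: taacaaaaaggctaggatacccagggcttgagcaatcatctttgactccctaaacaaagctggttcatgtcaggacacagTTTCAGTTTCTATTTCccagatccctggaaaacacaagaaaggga
Irgm2: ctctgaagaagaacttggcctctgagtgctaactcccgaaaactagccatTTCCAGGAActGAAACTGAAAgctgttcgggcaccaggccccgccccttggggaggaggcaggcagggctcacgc
Isg15: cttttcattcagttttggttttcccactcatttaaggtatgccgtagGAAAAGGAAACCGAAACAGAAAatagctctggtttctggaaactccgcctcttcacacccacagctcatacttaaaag
Ifit1: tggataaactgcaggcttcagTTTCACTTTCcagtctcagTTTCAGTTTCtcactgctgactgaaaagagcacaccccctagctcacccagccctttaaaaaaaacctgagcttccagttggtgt

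Of all 32851 promoter windows of 300 bases in the RefSeq table, 3.44% held the ISRE letters and 8.3% the GAS letters. Of the 9 genes followed here, 6 held an ISRE match (Gbp2, Gbp3, Gbp7, Stat2, Ifit1 and Isg15) and 2 a GAS match (Gbp7 and Irf1), while Irf7 and Irf9 held neither. The ISRE letters were thus present both in genes that were higher in the mutant libraries and in genes that were not. Among the other interferon targets listed for this work, 70 had a window, of which 28 (40%) held an ISRE and 17 (24.3%) a GAS match. These matches describe the letters and are not evidence of binding.

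**Figure D1:**
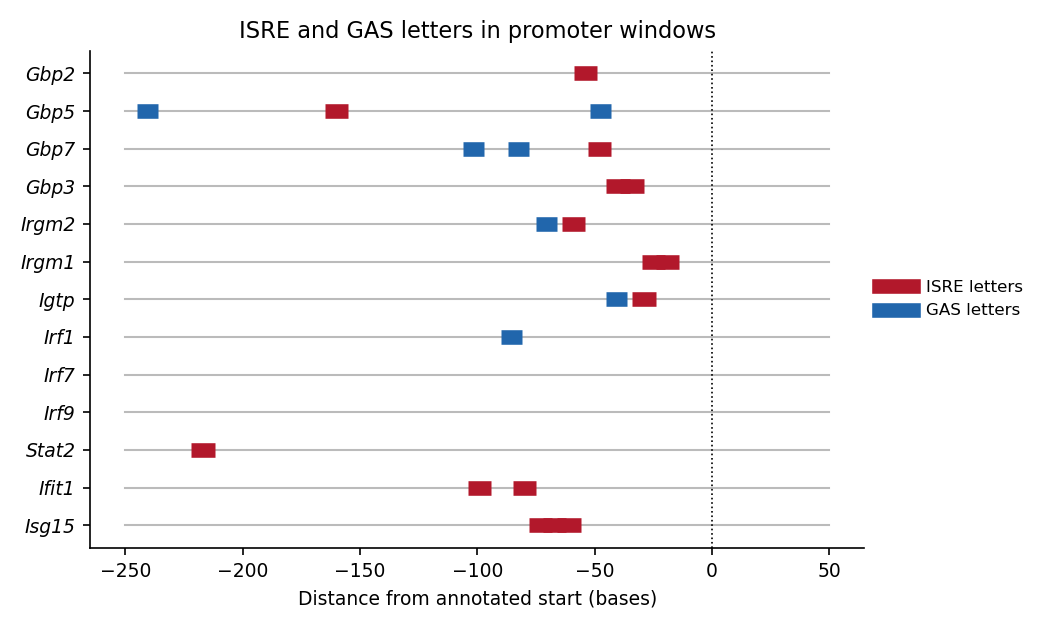
Positions of the ISRE letters (red) and GAS letters (blue) in the promoter windows of 13 interferon genes, in bases from the annotated start (0, dotted line), with the first listed window of each gene as a grey line. Gbp2 has 1 ISRE match near its start, as do Gbp7 and Irgm2, whereas the windows of Irf7 and Irf9 are empty.

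Library totals were between 11036313 and 17869840 counts, and both mutant libraries were shallower than both wild-type libraries. A count of 3, taken as the floor, equals 0.168 to 0.272 CPM (counts scaled by library size). Sall1, the overexpressed gene, was counted 1243 and 1445 times in mutant replicates 1 and 2 and 279 and 223 times in wild-type replicates 1 and 2, in the direction of the labels. Below, pairs of values are replicates 1 and 2 in that order. Ovarian somatic markers such as Foxl2 (45.2 ± 1.51 normalized CPM in mutant and 30.0 ± 2.87 in wild-type ovaries, SD, n = 2) and the germ cell marker Ddx4 (361 to 393 and 327 to 350 normalized CPM) were present in all 4 libraries. Foxl2 does not stand for its list. Of 10 ovarian somatic markers 8 had a positive and 2 a negative log2 fold change, with a median of 0.039. Bmp2 was lower in both mutant libraries, at 25.0 and 21.9 against 42.7 and 38.5 normalized CPM.

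Among 15442 genes that passed the filter on low counts, edgeR's quasi-likelihood test called 0.013% higher and 0.0453% lower in the mutant at an adjusted p under 0.05, and 0 members were among them, with 3 members (Gbp2, Gbp7 and Irf9) higher at an unadjusted p under 0.05. At that level 456 of all genes tested were higher and 422 lower. DESeq2 gave an adjusted p to 14709 genes and called 0.286% higher and 0.428% lower, with Gbp2, the only member called, among the higher. As Gbp2 was chosen on this difference, these counts describe the choice. Both mutant libraries lay above both wild-type libraries for 15.8% of the genes tested and below both for 15.1%, and 49.8% of the estimates were positive. The counts for gene lists given further on are to be read beside these shares. Of the 9 members 8 passed the filter, all of them also through wild-type libraries, and only Ifit1 did not. Gbp2, Gbp3, Gbp7 and Irf9 lay above the wild-type range, 0 members lay below it, and the remaining members overlapped.

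Gbp2 encodes an interferon-inducible GTPase of the dynamin superfamily and lies at chr3:142283566-142300972 on the plus strand of NCBIM37 (mm9). Its counts were 236 and 364 for the mutant and 144 and 121 for the wild type. In normalized CPM these were 21.4 and 24.2 against 8.37 and 6.86, so the groups were far apart and the libraries of each genotype close together. The mutant mean was 22.8 ± 1.97 CPM and the wild-type mean 7.61 ± 1.07 CPM (SD, n = 2 each), a log2 fold change of 1.58 (standard error 0.18), or 3.0-fold. Leaving out any 1 library gave log2 fold changes from 1.46 to 1.74.

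Gbp7 (chr3:142193302-142213047), a relative of Gbp2 in the same cluster, had 7.08 and 7.71 normalized CPM in the mutant and 3.95 and 4.59 in the wild type. It was higher in both mutant libraries, at 0.79 on the log2 scale (standard error 0.24), smaller than that of Gbp2. Gbp3 (chr3:142223016-142236173) was near the limit of reliable counting, with counts of 15 and 21 for the mutant and 22 and 15 for the wild type. Once normalized, its values of 1.36 and 1.40 CPM lay just above 1.28 and 0.850 CPM, and its log2 fold change of 0.37 was smaller than its standard error of 0.43. Within a library, where depth cancels out, there were 3.03 and 3.14 Gbp2 counts per Gbp7 count in the mutant and 2.12 and 1.49 in the wild-type ovaries. Because Gbp2 was chosen on its difference in these libraries, its larger excess beside Gbp7 describes that choice and is not a result.

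The transcription factors of the pathway had smaller estimates. Irf1, induced by interferon gamma and known to act on guanylate-binding protein genes, had 40.1 and 40.1 normalized CPM in the mutant and 37.3 and 42.7 in the wild type. The mutant values lay within the wild-type range, at 0.00 on the log2 scale (standard error 0.12). Irf7, the amplifier of type I interferon production, had 1.45 and 1.93 normalized CPM in the mutant and 2.15 and 0.793 in the wild type. For Irf7 the wild-type libraries lay on either side of the mutant ones, so the log2 fold change of 0.21 (standard error 0.54) has no fixed sign and became -0.32 without wild-type replicate 2.

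Irf9 and Stat2 encode partners in the complex that binds the ISRE. Irf9 had 35.0 and 29.8 normalized CPM in the mutant and 25.1 and 26.3 in the wild type, a log2 fold change of 0.33 (standard error 0.13) with no overlap. Stat2 had 45.6 and 35.2 normalized CPM against 36.2 and 32.4, with overlapping groups and a log2 fold change of 0.23 (standard error 0.16). The 2 mutant libraries of Stat2 differed more from each other than the group means did.

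The antiviral effectors Ifit1 and Isg15 were close to the floor in every library. Ifit1 was counted 2 and 10 times for the mutant and 8 and 2 times for the wild type, too few to pass the filter, and its groups overlapped. Isg15 was counted 12 and 11 times for the mutant and 19 and 18 times for the wild type, or 1.09 and 0.731 against 1.10 and 1.02 normalized CPM. Its log2 fold change was -0.24 (standard error 0.45), within the error. At this depth a modest difference in either gene would not be detectable.

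**Figure D2:**
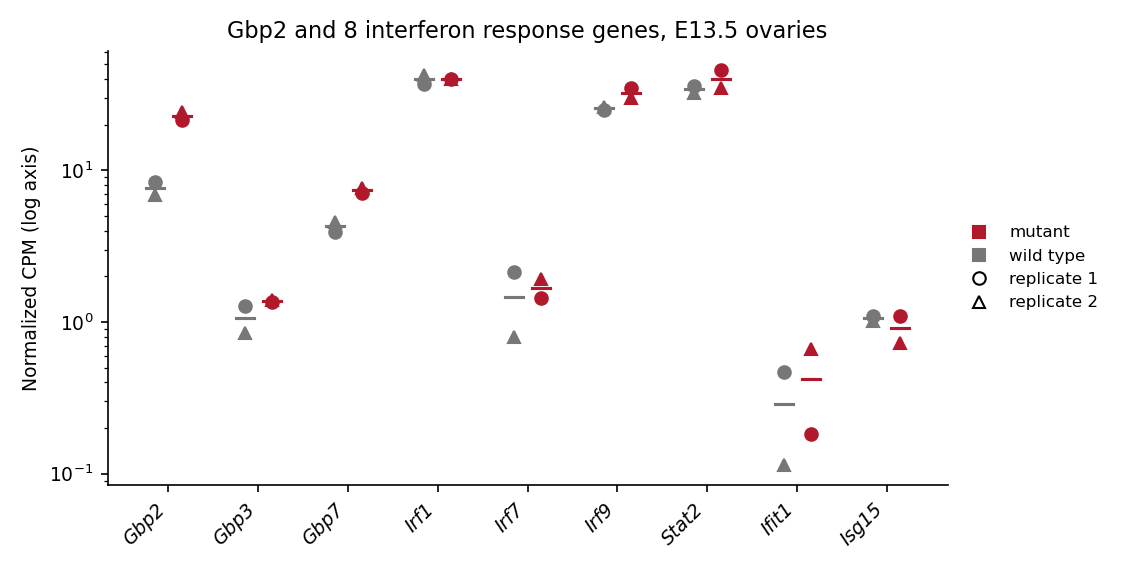
Normalized CPM (log axis) of the 9 genes in each library, mutant in red and wild type in grey, with circles for replicate 1, triangles for replicate 2 and a line at the mean of each group (n = 2). Gbp2 is separated from the wild-type values by a wide gap (21.4 and 24.2 against 8.37 and 6.86 CPM), Gbp7 by a narrower one, while Irf1, Irf7, Stat2, Ifit1 and Isg15 overlap.

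Per kilobase of the longest coding transcript in the annotation (RPKM, SD, n = 2), Irf1 was highest of the 9 genes in both genotypes, at 18.8 ± 0.014 in mutant and 18.7 ± 1.79 in wild-type ovaries. In wild-type ovaries Irf9 at 8.69 ± 0.297 RPKM and Stat2 at 7.79 ± 0.619 RPKM came next, and Gbp2 followed well below them at 3.03 ± 0.425 RPKM. In mutant ovaries Irf9 had 11.0 ± 1.24 RPKM, Stat2 9.18 ± 1.68 RPKM and Gbp2 9.06 ± 0.782 RPKM, so the ranges of 1 SD around these means overlapped. The remaining genes were at or below 1.40 RPKM in both genotypes. Wild-type Isg15 at 1.40 ± 0.0789 RPKM lay above Gbp7 at 0.770 ± 0.0813 RPKM, whereas in the mutant Gbp7 at 1.33 ± 0.0807 RPKM and Isg15 at 1.20 ± 0.335 RPKM did not differ beyond their spread. Irf7, Gbp3 and Ifit1 were lowest, from 0.109 to 0.755 RPKM.

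The whole family of guanylate-binding proteins was then examined. Of 11 listed genes 6 were tested, and all 6 had a positive log2 fold change, but 0 passed edgeR's adjusted threshold in either direction. At an unadjusted p under 0.05 3 were higher (Gbp2, Gbp5 and Gbp7), and DESeq2 called 1, Gbp2 itself. Gbp2, Gbp3 and Gbp7 are members chosen with results known, and Gbp5 passed the filter only through the mutant libraries. These counts therefore describe the choice of genes and are not a result about the family. Gbp5, which promotes inflammasome assembly, was counted 13 and 21 times for the mutant and 4 and 1 times for the wild type. These values, 1.18 and 1.40 against 0.232 and 0.0567 normalized CPM, place it close to the floor of 3 counts in wild-type ovaries, and it passed the filter only through the mutant libraries. Its estimate of 3.10 on the log2 scale (standard error 0.67, adjusted p = 0.319 in edgeR's quasi-likelihood test) therefore depends on very few counts.

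Gbp9 and Gbp4, on chromosome 5, had overlapping groups with log2 fold changes of 0.40 (standard error 0.34) and 0.14 (standard error 0.56). Gbp2b, Gbp8, Gbp10 and Gbp11 had at most 10 counts in any library, and Gbp6 was listed at 0. The members of this family are similar in sequence and the counting may divide or drop reads between them, and Gbp2b has a second row under its older symbol Gbp1, so levels within the family are uncertain. Gbp2 made up 53.4% and 57.3% of all guanylate-binding protein counts in the mutant and 44.7% and 34.5% in the wild-type libraries. Without Gbp2 the family summed to 18.7 and 18.0 normalized CPM in the mutant and 10.3 and 13.0 in the wild type. The remainder was thus higher as well, but it holds Gbp5 and the members Gbp7 and Gbp3.

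Immunity-related GTPases, which act together with guanylate-binding proteins on pathogen vacuoles, were examined next. Of 9 listed genes 4 were tested, and 3 lay above the wild-type range. Irgm2 had 11.9 and 12.1 normalized CPM in the mutant against 6.10 and 6.29 for the wild type. The groups were far apart relative to their spread, at a log2 fold change of 0.95 with a standard error of 0.19 (adjusted p = 0.266, edgeR, and 0.234, DESeq2). Irgm1 and Igtp had log2 fold changes of 0.74 (standard error 0.21) and 0.58 (standard error 0.23), with adjusted p of 0.553 and 0.848 in edgeR. Iigp1 lay on the other side, with both mutant libraries below both wild-type libraries and a log2 fold change of -0.41 (standard error 0.37). Tgtp1 and Tgtp2 were listed at 0, and a row named as a copy of Tgtp2, not on the list, had counts of 6 and 20 against 21 and 23, with overlap.

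**Figure D3:**
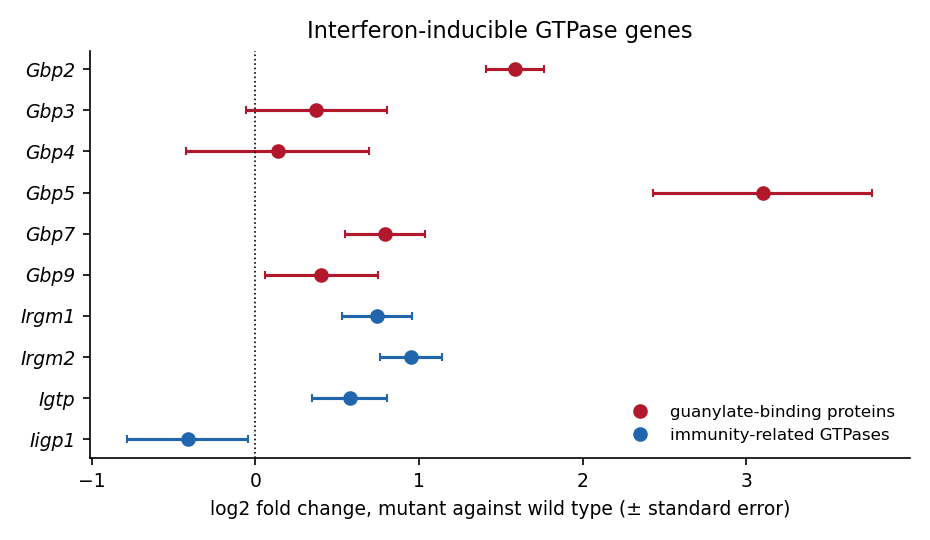
log2 fold change, mutant against wild type, with its standard error for the tested guanylate-binding proteins (red) and immunity-related GTPases (blue). 9 of the 10 genes have a positive estimate (49.8% over all genes tested), from 0.14 for Gbp4 to 3.10 for Gbp5 with a wide error, and Iigp1 is at -0.41. Gbp2, Gbp3 and Gbp7 are members chosen with results known, and Gbp5 passed the filter only through the mutant libraries.

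Beyond the 9 members, 104 interferon target genes were listed, of which 103 had a row in the table and 77 were tested. In edgeR 0 were called in either direction at an adjusted p under 0.05, 12 were higher and 0 lower at an unadjusted p under 0.05 (of 15442 genes 456 and 422), and DESeq2 called 1 higher and 0 lower. Both mutant libraries lay above both wild-type libraries for 33 of the 77 (42.9%, against 15.8% of all genes tested) and below for 5 (6.49%, against 15.1%). The median log2 fold change was 0.16, beside -0.00088 over all genes tested. Of these 77 genes, Gbp5, Ifi35 and Oas1b passed the filter only through the mutant and Sp100 only through the wild-type libraries. The list was written with earlier results known and its genes share regulators and libraries, so these shares describe it and are not a test of it.

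Of the type I targets, 38 of 48 tested genes were positive (49.8% over all genes tested) and 25 lay above the wild-type range, with a median log2 fold change of 0.28. The one gene called by DESeq2 was Ifi27, an interferon-induced membrane protein gene, with 42.9 and 32.7 normalized CPM in the mutant and 18.7 and 17.7 in the wild type (log2 difference 1.05, standard error 0.16, adjusted p = 0.145 in edgeR and 0.00059 in DESeq2). Oas2, an activator of the RNA-degrading enzyme RNase L, had 6.90 and 5.18 normalized CPM against 2.56 and 2.04 (log2 difference 1.39, standard error 0.31, adjusted p = 0.347, edgeR). Lgals3bp, a secreted glycoprotein gene, had 11.2 and 9.77 against 5.29 and 5.33 normalized CPM (log2 difference 0.98, standard error 0.21, adjusted p = 0.317, edgeR). For Oas2 and Lgals3bp the separation of the libraries was clear but did not pass the correction over all genes. These 3 genes, Gbp5 and Irgm2 were picked out after their values were seen.

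The estimates of other type I targets varied. Ifitm1, Ifitm2 and Trim25 had the highest mean CPM of the type I list, with log2 fold changes of 0.27, -0.097 and -0.0048 and standard errors from 0.087 to 0.099. Rsad2 (viperin), Usp18 and Oasl2, strongly induced by type I interferon in many cells, each had overlapping groups. Their log2 fold changes were -0.080, -0.14 and 0.36, with standard errors of 0.30, 0.50 and 0.31. Usp18 had counts of only 11 and 9 in the mutant and 17 and 13 in the wild type. Ifi44, Oas1a, Xaf1 and Ddx60 lay above the wild-type range, at 1.02, 0.93, 0.68 and 0.68 (standard errors 0.55, 0.41, 0.33 and 0.34). These genes are examples named outside any rule. Of the 48 tested, 25 lay above and 3 below the wild-type range (15.8% and 15.1% of all genes tested). Ifit2 and Ifit3, relatives of Ifit1, lay just above the wild-type range, at 0.41 (standard error 0.26) and 0.63 (standard error 0.43).

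Many type II targets serve antigen presentation. Of 22 tested without the members, 12 were positive and 10 negative, 4 lay above and 1 below the wild-type range, and the median log2 fold change was 0.027, and the difference from the type I list was not tested. Psme1 and Psme2, proteasome activator subunits with the highest mean CPM of the list, had log2 fold changes of 0.12 (standard error 0.098) and 0.048 (standard error 0.093). B2m, the light chain of MHC class I, had -0.11 (standard error 0.13), and the inducible proteasome subunits Psmb8 and Psmb9 had 0.019 and -0.25, with standard errors of 0.53 and 0.47. Tap1 and Tapbp lay above the wild-type range at 0.22 (standard error 0.24) and 0.14 (standard error 0.12), and H2-Eb1 below it at -0.93 (standard error 0.54). Cxcl9 and Cxcl11, chemokine genes that interferon gamma induces strongly, were listed at 0 in all 4 libraries. Cxcl10, on the same list, had counts of 3 and 7 in the mutant and 2 and 2 in the wild type, near the floor and not tested.

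**Figure D4:**
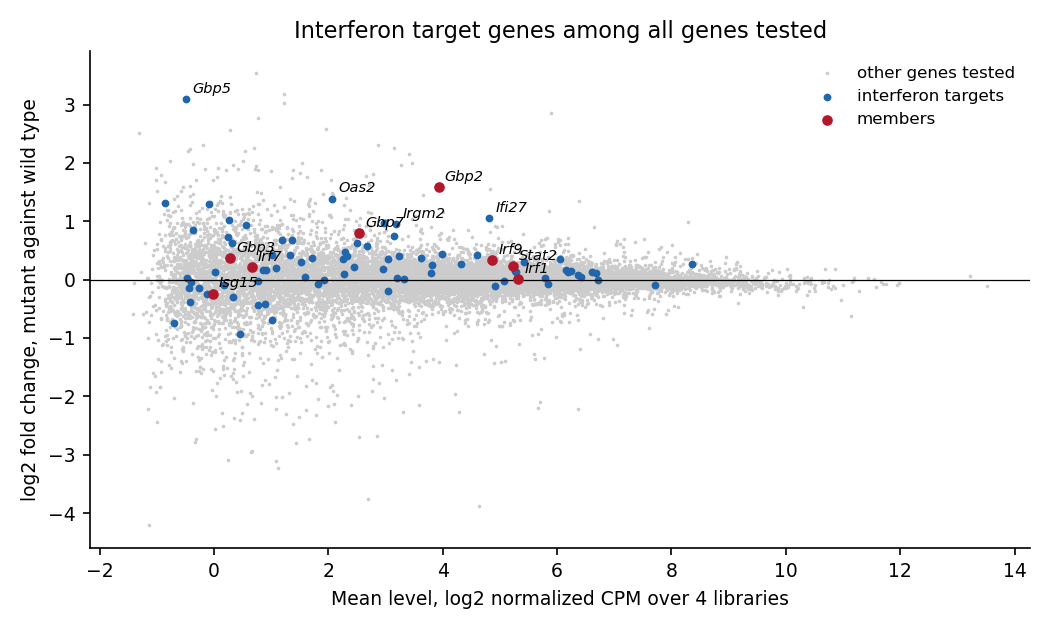
log2 fold change, mutant against wild type, against the mean level (log2 normalized CPM over the 4 libraries) for all 15442 genes tested, with the 77 tested interferon targets in blue and the 8 tested members in red. Gbp2 stands at 1.58 above a cloud of targets that lie mostly between 0 and 1, with Gbp5 far up at a very low level. Gbp2 was chosen on this difference and Gbp5 passed the filter only through the mutant libraries, so their high place is not a result.

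No interferon gene could be detected above the floor. Of 21 listed ligand genes 19 had 0 counts in all 4 libraries, Ifnb1 and Ifng among them, and the other 2 had 1 count each. A count of 0 allows up to 0.168 to 0.272 CPM, counting error only. The receiving side was present, and its highest levels were those of Ifnar1, with 387 and 404 normalized CPM in the mutant and 354 and 333 in the wild type, of the kinase Jak1, with 355 and 335 against 320 and 307, and of Ifngr2, with 105 and 88.4 against 105 and 89.2. All 9 receptor and kinase genes were tested and 0 were called by edgeR, 0 by DESeq2 and 0 at an unadjusted p under 0.05, with log2 fold changes from -0.093 to 0.25.

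The other parts of the pathway were examined in the same way. Of 12 STAT and IRF factors 11 were tested, all with a positive log2 fold change (that of Irf1, 0.0037, turned negative with upper-quartile factors and with DESeq2) and 3 above the wild-type range, with the well-expressed Stat3 and Irf3 at 0.016 and 0.085. All 14 negative regulators were tested, 6 positive and 8 negative, with Ptpn2, Ptpn11 and Trim24 at 0.11, -0.090 and 0.022. Of 21 genes of nucleic acid sensing 17 were tested, 9 positive and 8 negative, with a median of 0.0043. Ddx58 (RIG-I), a sensor of viral RNA, was at 0.36 (standard error 0.14, adjusted p = 0.817, edgeR), the RNA editor Adar 0.16 (standard error 0.10), and Samhd1, which breaks down nucleotides, -0.31 (standard error 0.14, adjusted p = 0.936, edgeR). In these 3 groups edgeR called 0 genes, DESeq2 called 0, and 3 genes, Irf9 and Ddx58 among them, were higher at an unadjusted p under 0.05.

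Immune and vessel cells also express interferon targets, and in bulk tissue fewer cells of a type and less RNA per cell cannot be told apart. Of 15 macrophage markers 14 were tested and 0 were called, 1 lay above and 0 below the wild-type range, and their summed level was 81.2 to 171 normalized CPM for the mutant and 86.7 to 213 for the wild type. Adgre1, a defining marker, has rows under its present and its older symbol, both listed at 0, so its reads may have been lost in the counting. The 2 libraries numbered replicate 1 were higher than those numbered replicate 2 in both genotypes. Lymphoid markers, of which 1 of 10 was tested and 0 called, summed to 1.26 to 1.45 CPM for the mutant and 1.59 to 1.98 CPM for the wild type, with Cd3g, Ncr1 and Gzma at 0. Endothelial markers summed to 495 to 522 and 540 to 569 CPM, lower in both mutant libraries, and 0 of 10 were called by edgeR. Erythroid markers summed to 883 to 3227 and 1743 to 3577 CPM, and of 7 tested edgeR called 0, DESeq2 1 lower, and 3 were lower at an unadjusted p under 0.05. The part of these cells in the result was not tested.

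In the genome, Gbp2 lies at the end of a cluster with Gbp5, Gbp7 and Gbp3. Within 500 kb, 9 protein-coding genes passed the filter, Gbp2 included. Ccbl2, a kynurenine aminotransferase gene that starts 80.4 kb beyond the start of Gbp2, had 56.1 and 64.7 normalized CPM in the mutant and 43.4 and 43.6 in the wild type, a log2 fold change of 0.47 (standard error 0.12). Bmpr1b, a BMP receptor gene at -451 kb, had a log2 fold change of 0.56 (standard error 0.19), also without overlap. Pdlim5, Gtf2b and Pkn2 overlapped between the genotypes, at 0.11, 0.053 and -0.048. The estimates of Gbp7 (0.79) and Gbp3 (0.37) lay on either side of those of Ccbl2 and Bmpr1b, and since Gbp2 was chosen on its difference and Gbp5 passed the filter only through the mutant libraries, their higher place is not a result.

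**Figure D5:**
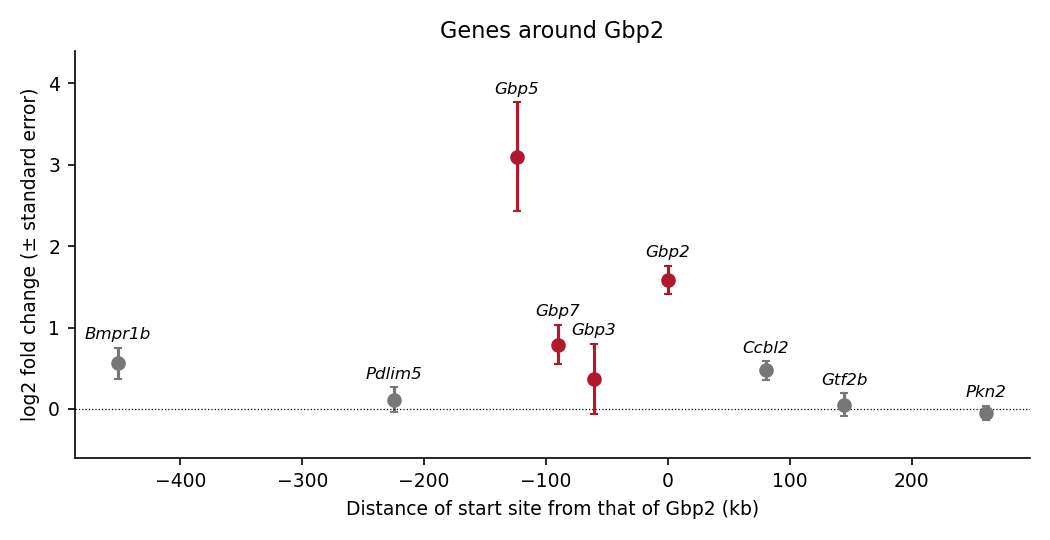
log2 fold change with its standard error of the 9 tested protein-coding genes within 500 kb of Gbp2, against the distance of their start from that of Gbp2 in kb (NCBIM37 annotation), with guanylate-binding proteins in red. Gbp5 (3.10) and Gbp2 (1.58) are followed by Gbp7 (0.79), Bmpr1b (0.56), Ccbl2 (0.47) and Gbp3 (0.37), and Pdlim5, Gtf2b and Pkn2 lie near 0. Gbp2 was chosen on its difference and Gbp5 passed the filter only through the mutant libraries.

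The genes most like Gbp2 were found by the distance between profiles over the 4 libraries, each profile being log2(CPM + 1) minus its mean. They were F2rl1 (distance 0.22), Il15 (0.22), Tph2 (0.25), Sstr3 (0.27) and Gfap (0.32). Il15, a cytokine gene needed for natural killer cells, had 5.35 and 6.11 normalized CPM in the mutant and 1.51 and 1.59 in the wild type. F2rl1, a protease-activated receptor gene, had 2.81 and 3.12 against 0.407 and 0.453 normalized CPM. Its wild-type counts were only 7 and 8, and it passed the filter only through the mutant libraries, so its place is not a result. With 4 libraries in 2 groups such likeness mainly reflects a similar difference between the genotypes on this scale, where adding 1 shrinks differences at low CPM. In edgeR's fit the log2 fold change was 2.77 for F2rl1, against 1.58 for Gbp2. It was 1.88 for Il15, 1.76 for Tph2, 1.77 for Sstr3 and 1.63 for Gfap. Of these 5 genes 0 is a guanylate-binding protein. The lists of interferon targets used here hold none of these 5 genes, Il15 included, but the lists are not complete. Whether any of these 5 genes responds to interferon was not examined.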

How the data were processed

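RNA was measured in 4 libraries of mouse ovaries at E13.5. Per the labels and the methods, the authors aligned reads with STAR 2.6.1d on mm9 and counted them per gene with summarizeOverlaps, and they deposited raw counts, not normalized or pooled. The annotation and the strand setting are not given in the sources used here, so overlapping and antisense genes are uncertain. 0 count columns were left unused.

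Counts were analysed in R 4.3.3 with edgeR 4.0.16 (filterByExpr, TMM, quasi-likelihood test, Benjamini-Hochberg adjustment over all 15442 genes tested, threshold 0.05), with genotype as the only factor. Normalized CPM use TMM library sizes, and each standard error was obtained from the log2 fold change and its F value. The fit was tested on simulated data. Libraries of a genotype differed by more than sampling noise (chi-square per degree of freedom 11.8 and 13.2). The smallest p that an exact permutation test of 1 gene allows in this design is 0.333. DESeq2 1.42.0, named by the authors, other normalizations, filters and thresholds, the likelihood ratio test, a replicate block and leaving out each library were alternatives.

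Members and gene lists were chosen with earlier results of these data known. Of 239 listed symbols 3 were matched by an older symbol and 1 not at all, and 8 have rows under both symbols. Named genes were the members, the 3 with the highest CPM per list, genes past the threshold, all guanylate-binding proteins, genes near Gbp2, the 5 nearest profiles, and others said to be picked afterwards. Gene positions and lengths are from GENCODE M1 on NCBIM37 (the assembly of mm9), and promoters from RefSeq on GRCm38.p6.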

Additional observations from a re-analysis of the deposited data

How the results depend on the processing

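The counts of genes called higher and lower, 2 and 7, were 42 and 63 with DESeq2, 9 and 19 with no filter on low counts, 5 and 14 with at least 10 counts in every library, 62 and 72 with the likelihood ratio test, and 5 and 15 at an adjusted p under 0.1. With each library left out, where the lone library of a genotype is assumed to vary like the others, they ranged from 1 to 42 and from 3 to 88. They were 42 and 88 without mutant replicate 1, 20 and 18 without mutant replicate 2, and 1 and 3 without wild-type replicate 2. Interferon targets called higher, 0, were 1 (Ifi27) with DESeq2, 3 (Gbp5, Ifi27 and Irgm2) with the likelihood ratio test, and 0 to 1 with a library left out, the 1 being Ifi27 without either mutant library. In each setting run 0 targets were called lower. The median log2 fold change of the targets, 0.16, ranged from 0.11 to 0.24 with each library left out, and was 0.28 for type I and 0.027 for type II targets apart. The cause of these shifts was not tested. The replicate block gave 180 genes higher and 205 lower, and 5 targets (Gbp5, Ifi27, Irgm2, Lgals3bp and Oas2) beside Gbp2. Same-numbered libraries deviated together (correlation across genes 0.466), and the column names give each such pair neighbouring library numbers, but no source says that a number marks a shared litter, batch or day.

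Irf1 had no stable sign, with -0.00076 with DESeq2, -0.0081 with upper-quartile factors, -0.0048 with no filter on low counts, and -0.090 to 0.12 with a library left out. Irf7 ranged from -0.32 to 1.09 and Isg15 from -0.54 to 0.034 with a library left out. Gbp2 kept its sign in each setting, from 1.46 to 1.74. Counts near the floor limit Ifit1, Isg15, Gbp3 and Gbp5, whose value ranged from 2.44 to 4.32 with a library left out.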

Other observations

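MHC genes differed between libraries of 1 genotype, and not all in the same direction. H2-K1, a class I heavy chain gene, had 18.1 and 62.5 normalized CPM in mutant replicates 1 and 2, and 30.2 and 43.2 in wild-type replicates 1 and 2. H2-D1, another class I gene, had 4.36 and 12.1 against 6.16 and 8.44, and the class II gene H2-Ab1 had 1.45 and 4.59 against 2.85 and 3.12. The class I gene H2-T23 ran the other way, at 5.63 and 1.99 against 6.04 and 1.53. So did the class II gene H2-Aa, at 0.454 and 0 against 1.69 and 0.0567. H2-Aa had counts of 5 and 0 in the mutant and 29 and 1 in the wild type, mostly near the floor, and was not tested. B2m, the light chain of class I, was between 26.4 and 31.7 in all 4 libraries.

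Cd74, the invariant chain of class II, had 2.54 and 0.598 normalized CPM in the mutant and 4.59 and 0.34 in the wild-type libraries, and Lyz2, a myeloid gene, had 55.9 and 9.57 against 109 and 14.9. Both were higher in the library numbered replicate 1 of each genotype, as was the sum of the macrophage markers.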
